A study of Mus musculus with 2 samples.

Results

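Macrophages carrying a high level of Spp1, the transcript of the secreted matrix protein osteopontin, were described in single-cell RNA counts of mouse bowel and mesenteric fat. Their label, Spp1-high scar-associated macrophages, comes with 5 marker genes: Spp1, Arg1, Fabp5, Ctsk and Mmp12. A barcode was kept as a cell when it held at least 500 UMIs of genes (unique molecular identifiers, each standing for 1 captured RNA molecule), at least 300 genes and under 20% mitochondrial UMIs. A kept cell passed the macrophage gate when C1qa, C1qb, C1qc, Csf1r and Lyz2 together gave at least 4 UMIs. A gate cell was Spp1-high when it held at least 3 Spp1 UMIs and none of Col1a2 (fibroblasts), Epcam (epithelium), Cd79a (B cells) or Cd3e (T cells). The cells were thus chosen by their measured counts of these 10 genes, which are given below only as a description. This gave 101 cells among 9246 kept cells of the colotomy library and 7 among 42143 of the sham library. They were set against the gate cells of the same library with no Spp1 UMI, 982 in colotomy and 3280 in sham, to which the 4 lineage exclusions were not applied. A narrower comparison set that also passed the exclusions had 554 and 1110 cells.

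The colotomy library came from mice whose colon had been opened surgically, and the sham library from sham-operated mice. All animals were of the B6/C57 genotype, were 8 to 12 weeks old and were sampled on postoperative day 14. Each library pools cells digested from the bowel and from the mesenteric adipose tissue, and the number of animals behind a library is not given in the labels. With 1 library per operation there is no replicate, so no difference was tested, and every interval below is a 95% interval for counting error alone.

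Osteopontin is a phosphorylated glycoprotein that binds integrins and CD44 and is made by macrophages, osteoclasts and some epithelia. Macrophages with Spp1, Trem2, Gpnmb, Cd9 and Fabp5 have been described in fibrotic liver, lung and heart and in obese fat, where they are called scar-associated or lipid-associated macrophages. They are generally taken to derive from recruited monocytes, to lie beside matrix-producing fibroblasts and lipid-laden debris, and to carry strong lysosomal and lipid-handling programmes.

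Sequencing gave 12002711 gene UMIs in 15547 colotomy barcodes and 74006762 in 44814 sham barcodes. The colotomy Spp1-high cells had a median of 1048 UMIs (500 to 3753) and 587 genes, against 807.5 UMIs and 492.5 genes in their comparison cells, and summed to 116574 and 917023 UMIs. The 7 sham Spp1-high cells had a median of 2786 UMIs and summed to 18278. The deposited hashtags, listed as marking the tissues, mostly followed the library. Hashtag 1 made up over 50% of hashtag UMIs in 99.1% of kept colotomy cells and in 1.86% of kept sham cells. The Spp1-high cells were therefore not divided into bowel and fat. Lymphocyte barcodes, taken by Cd79a or Cd3e and without a gate gene, numbered 93 of 9246 kept colotomy and 10368 of 42143 kept sham cells. A difference in tissue make-up between the libraries was not tested and cannot be told apart from the operation. Xist, expressed in female cells, was found without a Y-linked UMI in 20 of the 101 colotomy Spp1-high cells, a Y-linked UMI without Xist in 6, both in 3 and neither in 72. Kept sham cells were nearly all without Xist (27 of 42143 held it), and 11885 held a Y-linked UMI without Xist. Of kept colotomy cells, 1535 held Xist without a Y-linked UMI and 1097 a Y-linked UMI without Xist. The libraries shared 108 kept barcodes, and 2 colotomy Spp1-high cells carried a barcode that was also a kept cell in sham, in neither case a gate cell there.

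Spp1-high cells made up 8.15% of colotomy gate cells (6.69% to 9.82%, 101 of 1239) and 0.211% of sham gate cells (0.0848% to 0.434%, 7 of 3319). Their number was set by a count threshold, and the colotomy cells were the shallower ones. When every cell was thinned to 500 UMIs before the rule was applied, the shares were 8.31% (66 of 794) and 0.0767% (1 of 1303). Among gate cells that passed the exclusions the shares were 13.95% and 0.62%. Cells just outside the threshold, with 1 or 2 Spp1 UMIs, numbered 69 in colotomy and 12 in sham. The exclusions removed a further 45 of 146 colotomy gate cells with at least 3 Spp1 UMIs, of which 31 held Col1a2.

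Within the colotomy Spp1-high cells the Spp1 count ran from 3 to 62 UMIs with a median of 7, and 21 cells stood at exactly 3 and 38 at 10 or more. Over all kept cells Spp1 was 341 CPM (counts per 1000000, the UMIs of a gene per 1000000 UMIs of all genes) in colotomy and 7.24 CPM in sham. The 101 cells held 39.0% of all Spp1 UMIs of kept colotomy cells, and all gate cells together 66.0%. In sham the 7 cells held 14.1% and all gate cells 29.6%, so most sham Spp1 UMIs lay outside the gate. Of kept cells with at least 3 Spp1 UMIs, 146 of 232 in colotomy and 12 of 31 in sham were gate cells. B cells outside the gate, identified by Cd79a, were taken for the level of free RNA, since activated T cells can make osteopontin themselves. These B cells were also required to hold no UMI of any gate gene. That leaves out barcodes with free macrophage RNA, so the shares given next can understate the level of free RNA. They had a Spp1 UMI in 1 of 86 colotomy cells (1.16%, median depth 871 UMIs) and 14 of 9396 sham cells (0.149%, median depth 1486). None of those 86 had 3 or more, which by the limit of 3 counts allows a share of up to 3.49%, and 2 of the 9396 did. Fewer cells of this kind and less Spp1 RNA per cell cannot be told apart near the threshold.

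Levels of 11 macrophage genes that the rule did not use were also taken. They summed to 9059 CPM in the Spp1-high cells, 3705 CPM in the Spp1 = 0 cells and 443 CPM in kept cells outside the gate. Spp1-high and Spp1 = 0 cells passed the same gate, so a ratio between them cannot show whether the former are macrophages. Of the 11 genes, 4 were at least 2-fold higher in the Spp1-high cells than in the Spp1 = 0 cells. The 1 at least 2-fold lower was Cd163. The list median was 0.66 on the log2 scale. Over all genes, 7.64% were higher and 17.3% lower by that size. Against the comparison cells with the exclusions, 3 of the 11 were higher and 2 lower, median 0.38, beside 8.01% and 20.3% of all genes. Cd68, a lysosomal glycoprotein of phagocytes, stood at 583 against 125 CPM, and Tyrobp, the signalling adaptor of TREM2, at 1887 against 680 CPM. Adgre1, which encodes F4/80, was at 180 against 143 CPM. Lyz2 was found in all 101 cells (2 to 59 UMIs, median 12), C1qa in 54, C1qb in 46, C1qc in 51 and Csf1r in 26. In 16 cells none of the C1q genes or Csf1r was found, so that Lyz2 alone had brought them through the gate. Those 16 cells had no S100a8 UMI and 1 of S100a9, the abundant calprotectin genes of neutrophils, while Mmp12 stood at 8892 CPM and Gpnmb at 1516 CPM in them. Markers of other cell types were summed in the same way. The 5 neutrophil markers stood at 2385 CPM in the Spp1-high cells, 9477 CPM in the Spp1 = 0 cells and 1884 CPM in kept cells outside the gate. The 5 fibroblast markers summed to 497.5 CPM in the Spp1-high cells against 5304 CPM in the Spp1 = 0 cells and 829 CPM in those with the exclusions. The 3 T and NK markers summed to 25.7 against 34.9 CPM and the 6 dendritic markers to 42.9 against 60.0 CPM, with Xcr1, Cd209a and Zbtb46 at 0. Of the 3 B cell and plasma cell markers the summed level was 120.1 CPM, against 1180 CPM in the Spp1 = 0 cells. The 4 epithelial markers summed to 583 against 1703 CPM and the 3 erythroid markers to 283 against 1171 CPM.

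Of the label's markers, Fabp5 and Mmp12 were common and Arg1 and Ctsk were rare. Fabp5, a cytosolic fatty acid carrier, was found in 80 of the 101 cells, and Mmp12, the macrophage elastase, in 62. Arg1, which splits arginine into ornithine and urea, was found in 12 cells with 34 UMIs in all. Ctsk, a collagen-degrading cysteine protease best known from osteoclasts, was found in 14 cells with 45 UMIs, 13 of them in 1 cell. Without that cell the log2 ratio of Ctsk against the Spp1 = 0 cells was 2.72, against 3.18 with it. At 500 UMIs per cell, Arg1 was seen in 9.9% of Spp1-high cells and 2.55% of Spp1 = 0 cells, Ctsk in 10.9% and 1.12%, Fabp5 in 66.3% and 8.25%, and Mmp12 in 50.5% and 6.31%. Before thinning the same shares were 11.9% and 3.26%, 13.9% and 3.36%, 79.2% and 11.1%, and 61.4% and 8.15%. Arg1, Ctsk, Mmp12, Fabp5, Trem2 and Gpnmb were then counted together at 500 UMIs per cell. Of the 101 cells, 8 held none of the 6 markers, 29 held 1, 23 held 2, 31 held 3, 8 held 4 and 2 held 5. Of the 554 Spp1 = 0 cells with the exclusions, 447 (80.7%) held none, 83 held 1, 15 held 2 and 9 held 3.

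Across the transcriptome of the colotomy library, 9157 genes outside the rule had at least 10 UMIs over both sets. Of these, 700 (7.64%) were at least 2-fold higher in the Spp1-high cells and 1582 (17.3%) at least 2-fold lower, with a median log2 ratio of -0.08. Many of these genes rest on few UMIs: among the 5149 genes with at least 30 UMIs, 353 (6.86%) and 1000 (19.4%) passed. Against the comparison cells with the exclusions, 542 of 6764 genes (8.01%) were higher and 1372 (20.3%) lower by that size. A 2-fold ratio is a size and not a test. The genes named next stand at the 2 ends of this ranking, 14 at each, among genes with enough UMIs, and were picked for those ratios.

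**Figure D1:**
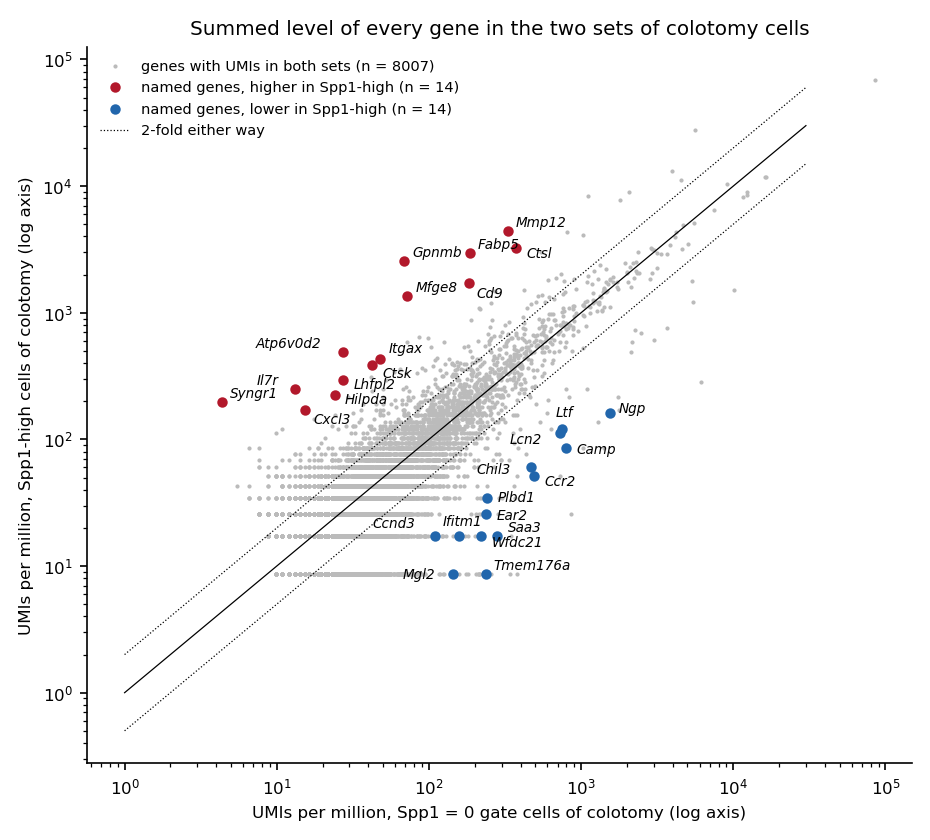
Level in CPM of 8007 genes with UMIs in both sets, summed over the 982 Spp1 = 0 gate cells (x axis) and the 101 Spp1-high cells (y axis) of the colotomy library, both axes logarithmic, with the 14 named higher genes in red and the 14 named lower genes in blue. Gpnmb lies at 68.7 and 2565 CPM and Mmp12 at 329 and 4435 CPM, far above the diagonal.

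Gpnmb, a transmembrane glycoprotein of lysosomes and melanosomes, stood at 2565 CPM (2282 to 2873) in the Spp1-high cells and 68.7 CPM in the Spp1 = 0 cells, a log2 ratio of 5.22 (4.83 to 5.64). Syngr1, a vesicle protein, had the largest ratio, 5.50 (3.95 to 7.49), from 23 UMIs against 4. Mfge8, the bridging protein that tethers apoptotic cells to phagocytes, was at 1355 against 72.0 CPM (log2 ratio 4.24), and 22.8% of its UMIs came from 1 cell. Atp6v0d2, a subunit of the proton pump that acidifies lysosomes, was at 489 against 27.3 CPM and was found in 41 cells. Fabp5 reached 2951 against 185 CPM (log2 ratio 3.99), Mmp12 4435 against 329 CPM (3.75) and the tetraspanin Cd9 1707 against 182 CPM (3.23). The lysosomal protease Ctsl stood at 3243 against 373 CPM (3.12). Itgax, which encodes the integrin CD11c, was at 429 against 48.0 CPM, and Il7r, the interleukin-7 receptor chain, at 249 against 13.1 CPM in 25 cells. The others were Hilpda, a lipid droplet protein that inhibits lipolysis, the membrane protein Lhfpl2, Ctsk, and the neutrophil chemokine Cxcl3, of whose 20 UMIs 9 lay in 1 cell. Against the comparison cells that passed the exclusions, the log2 ratios of these 14 were 2.85 to 5.51. Those cells are part of the set by which the genes were picked, so this is no independent check.

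**Figure D2:**
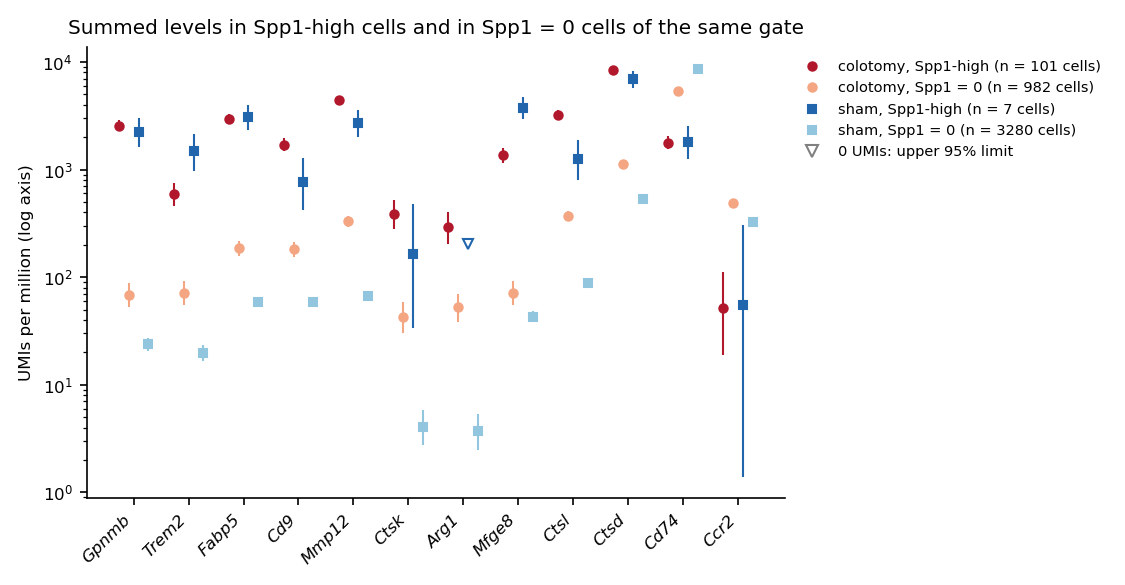
Level in CPM (log axis) of 12 genes summed over the Spp1-high and the Spp1 = 0 gate cells of each library, with exact Poisson 95% intervals as bars and an open triangle for the upper limit where no UMI was found. In both libraries the Spp1-high cells stand above the Spp1 = 0 cells for Gpnmb, Fabp5 and Mmp12 and below them for Cd74, while Arg1 has no UMI in the 7 sham cells.

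Several of these genes carry a short match to AP-1, the site of FOS and JUN family factors, close to their start. In GENCODE's GRCm38 annotation Spp1 spans chr5:104435118-104441050, Gpnmb chr6:49036546-49070929, Mmp12 chr9:7344381-7369499 and Trem2 chr17:48346401-48354147, all on the plus strand. Windows of 300 bases around RefSeq gene starts (assembly GRCm38.p6, the mm10 build) were found for 12 of the 14 named higher genes and 13 of the 14 lower ones, and both strands were searched for TGANTCA. The letters occur in 4 of the 12 higher genes (33.3%), in 0 of the 13 lower genes and in 8.97% of all 27025 genes with a window. The 4 genes are Gpnmb, Hilpda, Itgax and Mmp12, and the letters also occur at Trem2, which was looked at for its place in the programme. The Mmp12 match lies at a RefSeq start downstream of the first one, and Hilpda also has more than 1 start. For Spp1 itself the letters of a PU.1-type ETS site, GAGGAAGT, were found, which 1 of the 12 and 3.69% of all genes hold. A match in these windows is a description of letters and not of binding. The windows around each match are printed below as the plus strand, with the match in capitals, because they let the starts be compared.
Gpnmb, chr6:49036515-49036543: ccaggggcaagTGACTCAtgagcacgagt
Itgax, chr7:128129483-128129511: cccacctcctcTGAGTCAcgctgacaact
Mmp12, chr9:7347319-7347347: gacatcaacagTGAGTCAgatagaggatt
Hilpda, chr6:29272487-29272515: ctggactgcagTGAATCAaccgcgagccg
Trem2, chr17:48346381-48346409: ttctccctcctTGAATCAcagcgcctacc
Spp1, chr5:104434987-104435016: caaaaccagagGAGGAAGTgtaggagcagg
Counted from the RefSeq start of each window, which can differ from the GENCODE start above, the Gpnmb match begins 8 bases after the start, Hilpda's 10 bases after, and those of Itgax, Mmp12, Trem2 and Spp1 56, 44, 9 and 113 bases before. Other letters searched were TCACGTG, of lysosomal gene promoters, in 0 of 12 higher genes and 4.29% of all genes, TCATGTG in 1 of 12 and 4.31%, ACGTG, the core of the hypoxia element, in 3 of 12 and 21.8%, and GGGCGGG in 4 of 12 and 27.9%. ACGTG lies within TCACGTG, so these counts overlap.

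Genes were then taken in lists by role. Each count below stands beside 7.64% of all genes at least 2-fold higher and 17.3% at least 2-fold lower. Of 18 scar-associated and lipid-associated macrophage genes, 16 were at least 2-fold higher and none lower, with a median log2 ratio of 2.46 beside -0.08 over all genes. This list was drawn from macrophages of the same description, so its direction is not independent of the choice of cells. Trem2, the lipid-sensing receptor, was found in 43 cells at 592 CPM (461 to 749) against 72.0 CPM. Lgals3, the carbohydrate-binding protein galectin-3, was at 4375 against 806 CPM, and the tetraspanin Cd63 at 1475 against 273 CPM. The members under 2-fold were Fn1, fibronectin, at 1904 against 1631 CPM, and Mmp14, a membrane-bound collagenase, at 249 against 274 CPM.

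Of 18 lysosomal genes, 12 were at least 2-fold higher and none lower, median 1.29. The aspartyl protease Ctsd was at 8364 against 1117 CPM (log2 ratio 2.90, 2.78 to 3.03), and the cysteine protease Ctsb at 7729 against 1807 CPM. Psap, the precursor of the saposins that help degrade sphingolipids, was at 13176 against 3974 CPM, and Lipa, lysosomal acid lipase, at 532 against 103 CPM. Ctsh, an aminopeptidase, was at 249 against 261 CPM. Of 20 genes for lipid uptake, storage and export, 11 were at least 2-fold higher and 1 lower, median 1.19. Cd36, the fatty acid scavenger receptor, was at 1089 against 213 CPM, Plin2, which coats lipid droplets, at 1064 against 218 CPM, and Lpl, lipoprotein lipase, at 2016 against 738 CPM. Apoe, the lipoprotein component, reached 11203 against 4516 CPM. The nuclear receptors of lipid sensing were barely counted, with 2 UMIs of Pparg and 10 of Nr1h3.

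Of 15 genes of iron, haem and oxidative stress, 9 were at least 2-fold higher and 2 lower, median 1.16. The ferritin heavy chain Fth1 was at 27519 against 5585 CPM, 2.30 on the log2 scale (2.24 to 2.36), and the light chain Ftl1 at 8973 against 2053 CPM. Prdx1, a peroxidase, was at 3011 against 541 CPM, and Hmox1, which degrades haem, at 377 against 156 CPM. Cd163, the haemoglobin scavenger receptor of resident macrophages, was counted once, 8.58 against 62.2 CPM. Of 8 counted osteoclast genes 4 were at least 2-fold higher and none lower, median 1.01. Atp6v0d2, Ctsk, the acid phosphatase Acp5 (214 against 78.5 CPM) and the transcription factor Mitf (103 against 37.1 CPM) were those. Calcr, Siglec15, Ocstamp and Oscar, which mark fusing or mature osteoclasts, had no UMI in the Spp1-high cells.

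Genes acting on the matrix had no common direction. Of 18 counted matrix proteases and inhibitors, 6 were at least 2-fold higher, beside 7.64% of all genes, and 3 lower, close to the 17.3% of all genes. Their median was 0.27. Besides Mmp12 and Ctsk the higher ones were Adam8 (335 against 70.9 CPM), Mmp19 (352 against 148 CPM), the urokinase receptor Plaur (120.1 against 57.8 CPM) and Mmp13, with 3 UMIs. Mmp2, a gelatinase of fibroblasts, was at 8.58 against 203 CPM, but at 30.3 CPM in the comparison cells with the exclusions. Of 14 matrix and matricellular genes, 2 were at least 2-fold higher (Lgals3 and the proteoglycan Sdc1) and 3 lower, also near the 17.3% of all genes, median 0.21. Sparc, a collagen-binding protein of fibroblasts, was at 137 against 1297 CPM, and at 193 CPM with the exclusions. Thbs1, thrombospondin-1, was at 480 against 422 CPM. Levels of Mmp2 and Sparc thus moved with the fibroblast markers of the comparison cells, and how much of their difference those cells account for was not tested.

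Growth factors that act on fibroblasts were counted at low levels. Of 14 counted genes 7 were at least 2-fold higher and 1 lower, median 0.87, and with the exclusions 3 and 2. In the 20 cells with Xist and no Y-linked UMI the median was -0.16. Gdf15, a stress-induced TGF-beta family member, was at 214 against 29.4 CPM (log2 ratio 2.86, 2.02 to 3.70), and Vegfa, the vascular growth factor, at 146 against 43.6 CPM. Pdgfa and Pdgfb, ligands of the platelet-derived growth factor receptors, had 11 and 10 UMIs. Tgfb1 was at 94.4 against 85.1 CPM, and Igf1 at 214 against 185 CPM. Receptors for osteopontin itself showed little: 1 of 7 counted was at least 2-fold higher and 1 lower, median 0.43. CD44's gene was at 515 against 289 CPM, Itgav at 42.9 against 39.3 CPM and Itgb1 at 326 against 238 CPM.

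Of 17 complement and phagocytic receptor genes 6 were at least 2-fold higher, beside 7.64% of all genes, and 3 lower, a share close to the 17.3% of all genes. Their median was 0.62. C3ar1, the receptor for a complement fragment, was at 377 against 106 CPM.

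Cytokine genes divided. Of 15 counted, 6 were at least 2-fold higher and 4 lower, median 0.89, and under a gate that leaves out Lyz2 the median was -0.14. Against the comparison cells with the exclusions 3 were higher and 5 lower, median 0.61. The neutrophil chemokine Cxcl2 was at 1089 against 442 CPM, the chemokine Ccl9 at 1330 against 618 CPM, and Il1rn, the interleukin-1 receptor antagonist, at 326 against 150 CPM. Il1b was at 249 against 407 CPM, Ptgs2, the inducible prostaglandin synthase, at 94.4 against 197 CPM, and the monocyte chemokine Ccl2 at 8.58 against 78.5 CPM. Of 23 counted genes of hypoxia and glycolysis, 4 were at least 2-fold higher and none lower, median 0.35, led by Hilpda and the glucose transporter Slc2a1 (60.0 against 16.4 CPM). Of 16 immediate early genes, which tissue digestion induces, 2 were at least 2-fold higher and 1 lower, median 0.06: Atf3 at 300.2 against 109 CPM and Dusp1 at 1218 against 503 CPM were the higher ones. Among 19 transcription factors 4 were higher and 1 lower, median 0.39. The higher ones were Mitf, Rxra, Bhlhe40 and Nfe2l2. Nfe2l2, the regulator of the oxidative stress response, was at 395 against 174 CPM, and Maf, of resident macrophages, at 189 against 508 CPM.

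**Figure D3:**
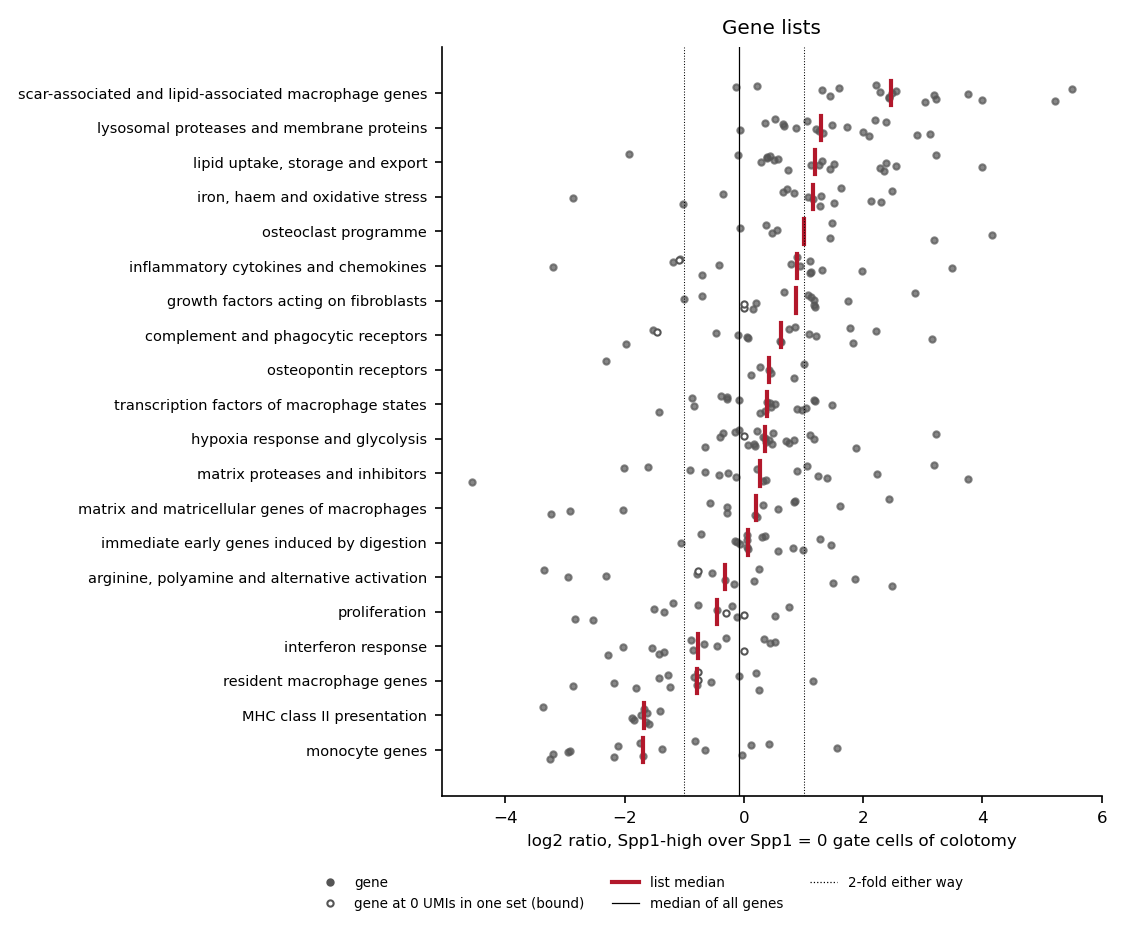
log2 ratio of summed levels, Spp1-high over Spp1 = 0 gate cells of the colotomy library, for each counted gene of 20 lists (points, open where a set had no UMI and the value is a bound), with list medians as red bars, the median of all genes as a solid line and 2-fold as dotted lines. The medians run from 2.46 for scar-associated genes to -1.67 for MHC class II and -1.69 for monocyte genes.

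The low end held antigen presentation, monocyte and granule genes. All 9 MHC class II genes were at least 2-fold lower, median -1.67, against 17.3% of all genes. With cells of at least 1000 UMIs that median was -1.08. Cd74, the invariant chain, was at 1776 CPM (1542 to 2035) against 5338 CPM, H2-Ab1 at 686 against 2474 CPM, and Ciita, their transactivator, at 8.58 against 88.3 CPM. Of 15 monocyte genes 9 were at least 2-fold lower and 1 higher, median -1.69. Ccr2, the receptor that draws monocytes into tissue, was found in 3 of the 101 cells, 51.5 against 489 CPM (log2 ratio -3.25, -4.70 to -2.11). The eosinophil-type ribonuclease Ear2 was at 25.7 against 238 CPM. The exception was F10, coagulation factor X, at 214 against 73.1 CPM. Of 15 resident macrophage genes 6 were at least 2-fold lower and 1 higher, median -0.78. With cells of at least 1000 UMIs the resident median was -0.28, and its weakest value under the alternative settings was -0.016. F13a1, a transglutaminase, was at 85.8 against 386 CPM and Mrc1, the mannose receptor, at 249 against 429 CPM, while Pf4 was at 918 against 412 CPM and Folr2 at 60.0 against 50.2 CPM. Of 13 genes of arginine use and alternative activation 3 were higher and 3 lower, median -0.31. Arg1 was at 292 CPM (202 to 408) against 52.3 CPM, but Retnla, a secreted product of interleukin-4-activated macrophages, was at 609 against 3021 CPM and Chil3 at 60.0 against 466 CPM. Of 14 interferon genes 5 were at least 2-fold lower and none higher, median -0.76, and with cells of at least 1000 UMIs the median was -0.15. Of 13 proliferation genes 5 were lower and none higher, median -0.45, and in the cells with Xist alone it was 0. Most members of both lists stayed within 2-fold, beside 17.3% of all genes lower by that size. Mki67 and Top2a, of dividing cells, had 2 UMIs each.

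The 14 named lower genes had log2 ratios of -4.78 to -2.65. Tmem176a, a membrane protein of antigen-presenting cells, was counted once (8.58 against 236 CPM), and so was the lectin Mgl2. Ngp, Camp, Ltf, Lcn2 and Wfdc21 are products of neutrophils and their precursors. Their few UMIs in Spp1-high cells lay in few cells: Ngp in 3, Camp and Ltf in 2, with 71.4% of the Ltf UMIs in 1. The gate counts Lyz2, which neutrophils also express, and the 5 neutrophil markers summed to 2385 CPM in the Spp1-high cells and 9477 CPM in the Spp1 = 0 cells. With all cells that held a UMI of S100a8, S100a9, Ngp, Camp, Ltf or Lcn2 left out of both sets (83 and 745 cells remaining), Ccr2 stood at -3.06, Tmem176a at -4.65 and Mgl2 at -3.94, while Chil3 moved to -1.17. The MHC class II median was then -1.83 and the scar-associated median 2.49. The remaining named genes were Saa3, Ifitm1, Plbd1 and Ccnd3. All 14 were at least 2-fold lower against the cells with the exclusions, which are part of the set by which they were picked.

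Levels were also taken by the amount of Spp1 in a cell. Colotomy gate cells with the exclusions were divided by Spp1 count into 554 cells with 0, 69 with 1 or 2, 63 with 3 to 9 and 38 with 10 or more UMIs. Gpnmb was at 84.4, 732, 1862 and 3656 CPM across these steps, Ctsl at 305, 1604, 2468 and 4444 CPM, and Mfge8 at 54.1, 244, 719 and 2342 CPM. Mmp12 was already at 2493 CPM in the cells with 1 or 2 UMIs and reached 6568 CPM in the last step. Ctsk was at 15.2, 69.7, 98.7 and 832 CPM, so that 38 of its 45 UMIs came from the cells with 10 or more Spp1 UMIs. Of those 38 UMIs, 13 lay in 1 cell and 9 in another, so its last level rests largely on these cells. Trem2 was at 82.3, 331, 621 and 547 CPM, and the intervals of its last 2 steps overlapped (451 to 833 and 354 to 808). Arg1 was at 64.9, 209 and 395 CPM (262 to 571) over the first 3 steps and at 131 CPM (48.2 to 286) in the last. In the other direction Cd74 was at 6495, 3661, 2102 and 1270 CPM, Retnla at 3773, 1273, 663 and 525 CPM, and Ccr2 at 574, 296 and 84.6 CPM and without a UMI in the last step. C1qa was at 1899, 1970, 1707 and 810 CPM. Neutrophil RNA and depth also varied over the steps: S100a8 was at 4735, 2162, 212 and 1598 CPM, Ngp at 2106, 1621, 0 and 416 CPM, and the median depth was 739.5, 686, 1019 and 1106.5 UMIs. Their part in the levels above was not tested. Cells with 1 or 2 Spp1 UMIs, which the rule leaves out, thus lay between the sets in Gpnmb, Fabp5, Ctsl, Cd74 and Retnla. The steps share a library and the cells in them were sorted by a gene of the same cells, so no trend was tested.

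**Figure D4:**
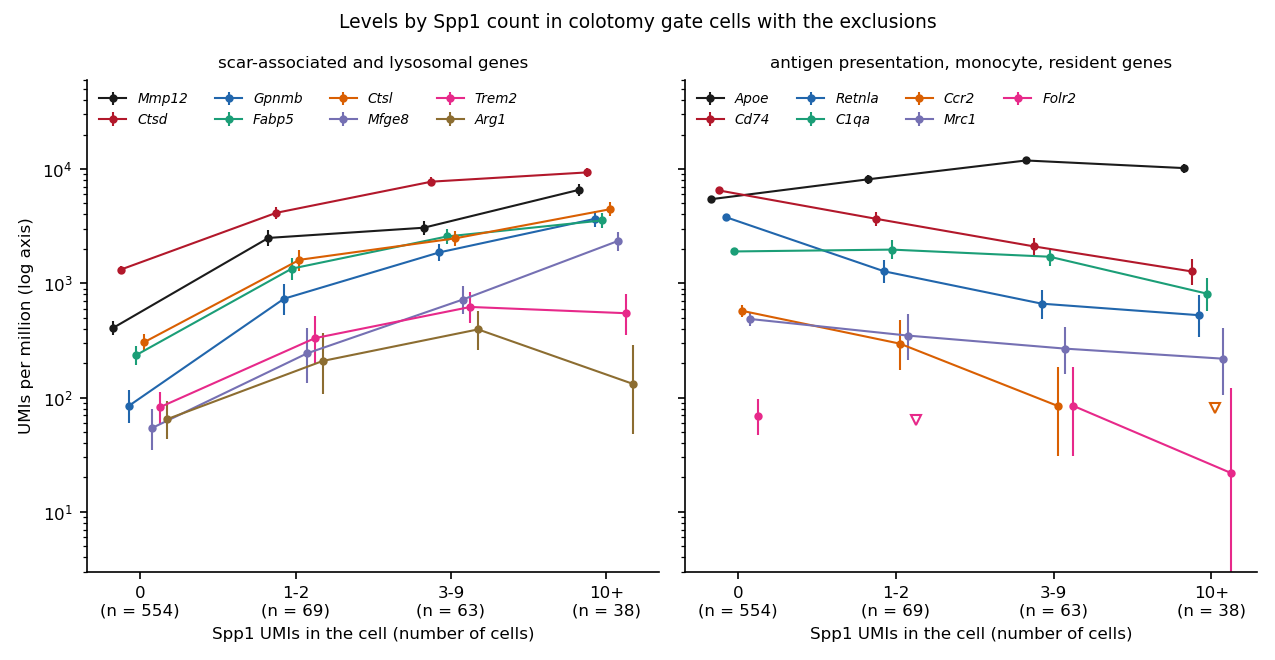
Level in CPM (log axis, exact Poisson 95% intervals) of 15 genes in colotomy gate cells with the exclusions, by the number of Spp1 UMIs in the cell, with an open triangle for the upper limit where no UMI was found. Gpnmb runs from 84.4 to 3656 CPM and Cd74 from 6495 to 1270 CPM.

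The Spp1-high cells were not uniform. At 500 UMIs per cell Gpnmb and Fabp5 were found together, Fabp5 in 45 of the 49 cells with Gpnmb (91.8%) and in 22 of the 52 without (42.3%). Arg1 was found in 1 of the 49 cells with Gpnmb and in 9 of the 52 without it. The split by Gpnmb was looked at further, without thinning, after these values were seen. The 61 cells with a Gpnmb UMI had a median of 1113 UMIs and the 40 without it 871.5, and their median Spp1 counts were 8 and 6. Mfge8 was at 2010 CPM in the cells with Gpnmb and 100.1 CPM in those without, a log2 difference of 4.33 (2.94 to 6.22). Fabp5 was at 3773 against 1376 CPM, Ctsl at 4177 against 1451 CPM, Plin2 at 1319 against 575 CPM and Apoe at 13590 against 6629 CPM. Retnla was at 809 against 225 CPM, but 32 of its 71 UMIs lay in 1 cell with Gpnmb. Without that cell it was at 401 against 225 CPM, a log2 ratio of 0.83 whose interval (-0.28 to 2.09) held 0.

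Other genes were higher in the 40 cells without Gpnmb. Arg1 was at 700.5 CPM in them and 78.3 CPM in the cells with Gpnmb, and Fn1 at 3602 against 1018 CPM. Pf4, a platelet and macrophage chemokine, was at 2051 against 326 CPM, Cxcl2 at 1776 against 731 CPM, Ccl9 at 2151 against 901 CPM and Il1b at 450.3 against 144 CPM. Without the cell with the most Il1b UMIs, the interval of its log2 ratio held 0 (-2.51 to 0.07). The neutrophil transcript S100a9 was also higher in them, 1801 against 914 CPM, and 48 of the UMIs in the cells with Gpnmb came from 1 cell, without which they stood at 291 CPM. Its part in these differences was not tested. Mmp12 was at like levels in the cells with and without Gpnmb (4465 and 4378 CPM), and for Trem2, Cd9 and Lpl the interval of the log2 ratio held 0. In the 62 cells with an Mmp12 UMI against the 39 without, Gpnmb was at 3161 against 1411 CPM and Arg1 at 117 against 630 CPM. Apoe, at 9807 against 13908 CPM, went the other way from the split by Gpnmb. The 12 cells with an Arg1 UMI had no S100a8 and no S100a9 UMI. In them Fn1 stood at 2967 against 1773 CPM in the other 89, Pf4 at 2498 against 723 CPM, Gpnmb at 390.4 against 2833 CPM and Lpl at 468 against 2207 CPM. The 14 cells with Ctsk had a median Spp1 count of 13 against 7 in the rest, and Mfge8 at 4170 against 689 CPM.

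**Figure D5:**
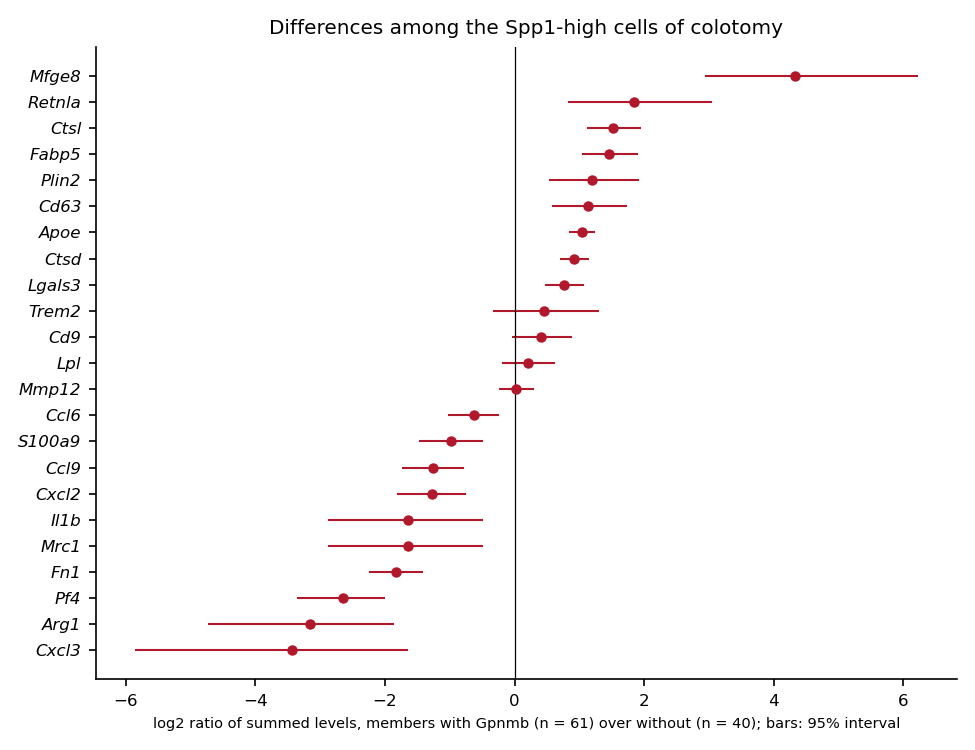
log2 ratio of summed levels (x axis) between the 61 colotomy Spp1-high cells with a Gpnmb UMI and the 40 without it, for 23 genes, with exact 95% intervals as bars that cover counting error. Mfge8 at 4.33 and Arg1 at -3.16 lie near the ends, and the interval of Mmp12 holds 0.

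The Spp1-high cells were also set beside 2 kinds of Spp1 = 0 gate cells that passed the exclusions. Cells with at least 2 UMIs of Folr2 and Lyve1 together (resident-like, 13 cells) had no Gpnmb or Mmp12 UMI in 12587. Apoe was at 11043 CPM in them, close to the 11203 CPM of the Spp1-high cells. Trem2 stood at 318 CPM in the resident-like cells but was found in only 3 of the 13. Their C1qa level was 4211 CPM against 1355 CPM. Cells with no Folr2 or Lyve1 and at least 2 UMIs of Ccr2, Ear2 and Plac8 (monocyte-like, 144 cells) had Gpnmb at 7.45 CPM and Apoe at 2228 CPM, but Fn1 at 2034 CPM, beside 1904 CPM in the Spp1-high cells. Retnla was at 3972 CPM in the resident-like and 6699 CPM in the monocyte-like cells, against 609 CPM.

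The 7 sham Spp1-high cells held 3, 3, 28, 5, 18, 11 and 4 Spp1 UMIs. Taken in the same order, Gpnmb gave 7, 0, 11, 3, 8, 8 and 4 UMIs, Trem2 5, 1, 4, 3, 1, 7 and 6, and Fabp5 7, 0, 7, 1, 8, 28 and 5. Trem2 was thus found in all 7 and Gpnmb and Fabp5 in all but the second, a cell with 1578 UMIs. Mmp12 was found in 3 of the 7, with 33, 9 and 8 UMIs. Mfge8 gave 6, 0, 16, 4, 1, 17 and 25 UMIs. Ctsk was found in 2 cells and Arg1 in none, and 0 of 18278 UMIs allows Arg1, by the limit of 3 counts, up to 164 CPM, beside 292 CPM in the colotomy cells. The fifth cell held 3 Xist UMIs in a library where 27 of 42143 kept cells held any, and none of the 7 held a Y-linked UMI. Without that cell the share was 0.181% (6 of 3318).

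Some genes of the programme were at like levels in both sets of Spp1-high cells and others were not. Gpnmb was at 2243 CPM (1610 to 3043) in sham and 2565 CPM in colotomy Spp1-high cells, Fabp5 at 3064 and 2951 CPM, Ctsb at 7058 and 7729 CPM, Lgals3 at 4322 and 4375 CPM and Cd74 at 1805 and 1776 CPM. For each of these the interval of the ratio between libraries held equality. Higher in sham were Trem2 (1477 against 592 CPM), Mfge8 (3775 against 1355 CPM) and Mmp9 (821 against 146 CPM). Lower in sham were Ctsl (1258 against 3243 CPM), Cd9 (766 against 1707 CPM), Cxcl2 (328 against 1089 CPM) and Junb, an immediate early transcription factor (438 against 2145 CPM). The sham levels rest on 7 cells, and counting intervals do not cover the spread among them. The top cell of each gene held 9 of 14 Cd9 UMIs, 9 of 23 Ctsl UMIs and 25 of 69 Mfge8 UMIs in sham. Il1b, Il1rn, Cd14 and Arg1 had no UMI in the 7 sham cells. The operation and everything else that differs between 1 library and the other, Xist and Y-linked RNA included, cannot be told apart. Cells without Spp1 also differed between the libraries. In gate cells with Spp1 = 0 and the exclusions, colotomy over sham, Cxcl2 stood at 2.43, Il1b at 3.70, Il1rn at 3.05 and Ctsl at 1.71 on the log2 scale, where 833 of 10779 genes (7.73%) were at least 2-fold higher in colotomy and 1113 (10.3%) lower. Trem2 stood at 1.45 there, the opposite direction from the Spp1-high cells. Against the sham Spp1 = 0 cells, 9 of the 14 named higher genes had a ratio whose interval lay above equality in the 7 sham cells. Il7r and Lhfpl2 had 2 UMIs and 1, and Syngr1, Cxcl3 and Hilpda none. Of the 14 named lower genes only Ccr2 and Tmem176a had an interval below equality. The share of all genes with such intervals in sham was not computed, so neither count has a background to be read against. Mgl2 and Ear2 had 3 and 2 UMIs, and for the other 10, with no UMI in 18278, a difference was not detectable at this depth.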

How the data were processed

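Single-cell RNA of 1 colotomy and 1 sham library was analysed. The deposited values are raw UMI counts per gene and barcode, written by Cell Ranger 6.0.0 per the file headers. The submitters' processing notes also list mm10, STAR 2.5.1b, Seurat and Space Ranger, with no role given. The table holds 32285 genes and 2 hashtags. No doublet caller was run; the 4 exclusion genes remove some mixed barcodes.

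UMIs were summed over the cells of a set and divided by the set's total. Levels have exact Poisson intervals, ratios exact conditional binomial intervals and shares Clopper-Pearson intervals, all at 95% and for counting error only. A count of 0 was set to 3 counts over the set. Genes needed 10 UMIs over both sets ("counted" genes), and the 10 rule genes were left out. For shares of cells with a UMI, cells were thinned to 500 UMIs. The ratio and thinning code was tested on simulated data.

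Genes were named as the 14 largest and 14 smallest ratios among those with at least 20 UMIs and 100 CPM in the set where they are higher, and a level there not below that of kept cells outside the gate. Mitochondrial, ribosomal, haemoglobin, immunoglobulin and unnamed genes were left out, and the label's markers were given whatever their ratio. The members, the 31 gene lists and the alternatives were chosen with earlier results of these data known. Python 3.11.15, numpy 2.4.6, scipy 1.17.1, pandas 2.3.3 and matplotlib 3.10.9 were used.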

Additional observations from a re-analysis of the deposited data

How the results depend on the processing

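With 1 library per operation no value has a replicate check, and depth limits genes with few UMIs in 116574. The colotomy share of gate cells moved to 13.2% with cells of at least 1000 UMIs and 500 genes, 15.9% with a gate of at least 8 UMIs, 5.89% with at least 5 Spp1 UMIs and 4.84% with 7 further lineage genes at 0. The sham share moved to 0.0767% with cells thinned to 500 UMIs. The number of genes at least 2-fold higher and lower moved from 700 and 1582 to 1503 and 2709 at 1.5-fold and to 353 and 1000 with at least 30 UMIs per gene. The higher count was 1418 with at least 1 UMI per gene, and the lower count 907 with a gate without Lyz2. In cells with Xist and no Y-linked UMI (20 against 185 cells) the lower count was 444 and the log2 ratio of Ctsk reversed to -0.20. In cells with a Y-linked and no Xist UMI (6 against 104) the counts were 393 and 115, and Saa3 and Wfdc21 reversed to 0.21 and 0.084. These settings leave few cells, and the cause was not tested. Over the 28 named genes, Arg1 and Trem2, 397 of 420 log2 ratios under the alternatives kept their sign, 20 stood at 0 because too few UMIs were left to give a direction, and 3 were those reversed. The named genes were picked for large ratios in these same cells, so kept signs are no independent check. Of 387 list medians, 352 kept their sign, 15 stood at 0 and 20 had the opposite sign. The cytokine median was -0.14 with a gate without Lyz2, -0.061 with 7 further lineage genes at 0 and -0.0034 in the cells with Xist alone. In the latter the matricellular median was -0.35 and the growth factor median -0.16. The transcription factor median was -0.032 with the 7 lineage genes, the immediate early median -0.025 with a gate without Lyz2, and the arginine median 0.059 without neutrophil RNA. The remaining changes of sign were in lists of markers of other cell types. Leaving out cells with neutrophil RNA, the top cell of a gene (also in the split by Gpnmb) or the sham cell with Xist was chosen after seeing the data. No paired analysis was possible because each operation has 1 library.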
